A study of Ovis aries and Bos taurus with 15 samples.

Results

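The genes described here encode enzymes and remodelling machines that act on chromatin. They were chosen by gene symbol: every probe set with exactly 1 symbol in the platform annotation, where the symbol began with SMARC, KDM, KMT, SETD, HDAC, SIRT, CHD, ARID, KAT or BRD, or was EZH1, EZH2, EED or SUZ12. A probe set is a group of short probes on the array that reads 1 transcript. The rule found 126 probe sets for 60 genes, out of 24016 probe sets tested and 9155 named genes on the array. KATNA1, a subunit of the microtubule-severing enzyme katanin, also matched the letters and was left out as a member of another family. Of the 60 genes, 33 had 1 probe set and 27 had several.

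Expression was measured on 15 Affymetrix bovine arrays, in 3 groups of 5 cultured endothelial samples grown in DMEM with 10% FBS. Ovine PAEC, the pulmonary endothelial cells of the study's title, were given the vehicle DMSO in one group and 5 µM GW9662 for 24 h in another. The third group was bovine cells labelled BAEC, called bovine control, for which the labels name no agent. GW9662 binds PPARγ covalently and blocks it. PPARγ is a nuclear receptor that regulates genes of lipid handling and of vascular function. The labels do not say whether replicates came from separate animals or cultures, and the p-values reflect only how far these samples spread, which may be technical. Values are log2 expression, so a difference of 1 means 2 times the signal.

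DNA is wound around histones, and how tightly it is packed sets which genes can be read. Writers such as acetyltransferases (KAT) and methyltransferases (KMT, SETD, EZH) add marks to histone tails, erasers such as deacetylases (HDAC, sirtuins) and demethylases (KDM) remove them, and bromodomain proteins (BRD) bind acetylated lysines. Remodellers of the SWI/SNF, ISWI and CHD families burn ATP to slide or evict nucleosomes. In endothelium, nuclear receptors such as PPARγ are known to work through these enzymes, recruiting HDAC-containing corepressors when silent and acetyltransferase coactivators when bound by an agonist.

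The members lay higher on the log2 scale than the array as a whole. In the ovine vehicle group 22.2% of the 126 probe sets had a mean under 3, the level taken here as the floor of the measurement, against 45.5% of all probe sets. The median member level was 5.74 and the median of all probe sets 3.25. Among the 13292 probe sets with 1 symbol, the pool the members came from, 39.9% were under 3 and the median was 4.18. Of the 59 genes other than EED, each represented by its brightest probe set, 3 were under 3 in all groups, namely HDAC11, SMARCD3 and ARID3B. All 60 symbols were also present in RefSeq's gene table for sheep, so each has a named counterpart in the ovine genome. How well the bovine probes match the ovine transcripts was not measured.

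EED, the subunit of Polycomb repressive complex 2 (PRC2) that binds methylated H3K27, needs separate treatment. The annotation gives its symbol to 23 probe sets, whose identifiers belong to 20 different transcript clusters. Their mean levels in the vehicle group spanned 2.19 to 9.17 around a median of 6.37, and 5 of them were under 3. These probe sets cannot be taken as readings of 1 gene, and gene-level counts below leave EED out. Counts over the 126 probe sets include it.

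**Figure D1:**
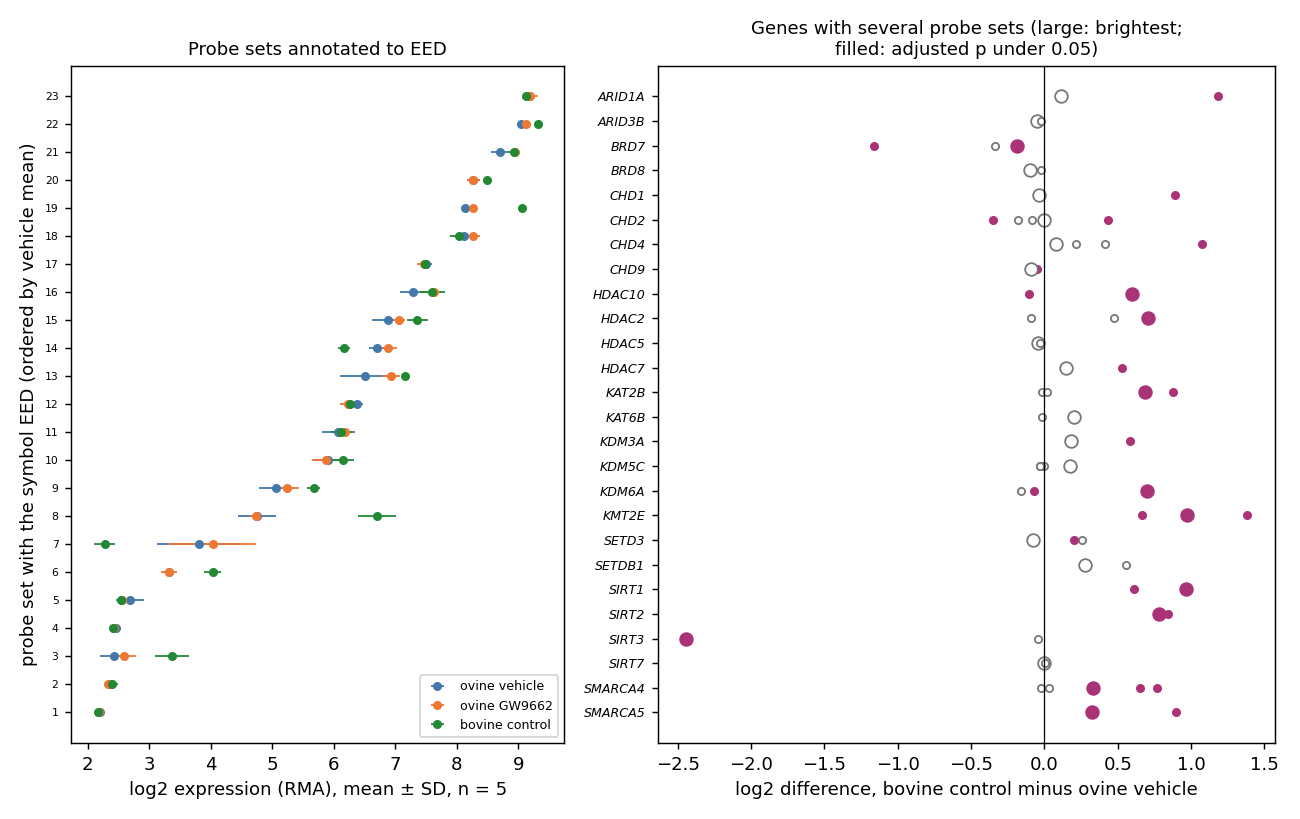
Left, mean log2 expression ± SD (n = 5 arrays) of each of the 23 probe sets annotated to EED, ordered by the vehicle mean, in ovine vehicle, ovine GW9662 and bovine control arrays. Right, the bovine minus ovine vehicle log2 difference of every probe set of the 26 other genes with several probe sets, with the brightest drawn large and those with an adjusted p under 0.05 filled. The EED probe sets spread from 2.19 to 9.17 in the vehicle group, and on the right the probe sets of KMT2E lie on one side of 0 while those of CHD2 lie on both.

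Arrays differed in a measure of RNA quality, and 1 array stood apart. The mean difference between 3′ and 5′ probe sets of 6 control transcripts, which grows as RNA is degraded or incompletely copied, was 1.07 to 1.30 in the vehicle group, 0.853 to 1.04 with GW9662 and 0.843 to 0.942 in the bovine group. The vehicle range overlapped neither of the others. Vehicle array 1 had the highest value (1.30) and the lowest correlations with its own group, 0.9938 to 0.9949 over all probe sets. It was the lowest vehicle array in 21 of the 55 member genes with a mean of 3 or more (38.2%) and in 43.6% of all 6303 such genes. Across the 55 member genes the median SD was 0.177 in the vehicle group (0.153 without array 1), 0.113 with GW9662 and 0.119 in the bovine group.

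Endothelial identity was checked with 16 markers, of which 15 were measured. PECAM1 stood at 11.63 ± 0.08 (SD, n = 5) and CDH5 at 11.47 ± 0.08 in the vehicle group, and TEK, CD34, ERG, MCAM and EMCN were also far above the floor in all groups. VWF was at the floor in every group (2.31 in vehicle arrays), and KDR and CLDN5 were under 3 in the vehicle arrays. The marker list's mean was 7.98 to 8.11 per vehicle array, 7.94 to 8.15 per GW9662 array and 8.63 to 8.76 per bovine array. The means of the 6 smooth muscle and 6 epithelial markers stayed under 3 on every array, with EPCAM, CDH1, MYH11 and DES between 1.95 and 2.75 in the vehicle group. SMTN was the one smooth muscle marker above 3, at 3.91 in vehicle, 4.29 in GW9662 and 5.19 in bovine arrays, and was higher in the bovine group (1.27, adjusted p = 0.0010). Of the leukocyte list, PTPRC was under 3 in all groups, while CD14 stood at 6.69 in vehicle arrays and 2.27 in bovine arrays. COL1A2, from the fibroblast list, stood at 10.33 in vehicle, 10.36 in GW9662 and 11.24 in bovine arrays, and the other 5 genes of that list were under 3. The part of other cell types in the results below was not tested, and in such bulk samples fewer cells of a type and less RNA per cell cannot be told apart.

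The first comparison asked whether 5 µM GW9662 for 24 h changed the expression of these genes in ovine PAEC. How far PPARγ was blocked in these cells was not examined here. None of the 126 probe sets passed the threshold of an adjusted p under 0.05 in limma, where 44 of all 24016 did (0.183%). At an unadjusted p under 0.05 there were 21 (16.7%), 13 higher and 8 lower with GW9662, while 21.4% of all probe sets reached that level, 6.87% higher and 14.5% lower. The 126 log2 differences ran from -0.39 to 0.76, with a median of 0.04 against -0.02 over all probe sets. Values of the leading genes follow as a description of differences that did not pass. The groups did not overlap in 11 of the 126 (8.73%), 4 higher and 7 lower with GW9662, against 14.6% of all probe sets (1.93% higher and 12.7% lower). Without EED 1 of 103 was higher and 6 lower. Among probe sets with a mean of 3 or more, 4 of 97 members did not overlap (4.12%), 4 higher and 0 lower. Of all such probe sets 5.43% did not overlap, 3.53% higher and 1.89% lower.

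By gene, 41 of the 59 differences were above 0 (69.5%), and the median was 0.05, where 39.3% of all 9155 genes were above 0. Among genes with a mean of 3 or more the gap was smaller, with 39 of 55 members (70.9%) and 52.8% of all 6303 above 0. The size of this tilt moved with the scaling and with vehicle array 1. With each array centred on its median, 46 of 59 members and 69.1% of all genes were above 0. After a second quantile normalisation 32 of 59 members (54.2%) and 45.2% of all genes were above 0. With vehicle array 1 left out these were 33 of 59 (55.9%) and 35.1%, and the members' median was 0.0066. Unadjusted p-values under 0.05 numbered 10 of 59 genes, 7 higher and 3 lower, while 20.1% of all genes reached that level, 7.67% higher and 12.5% lower. With 1 array left out they numbered 6 (without vehicle array 1 or GW9662 array 5) to 14 (without vehicle array 4), while the share of all genes was 12.5% to 22.2%.

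**Figure D2:**
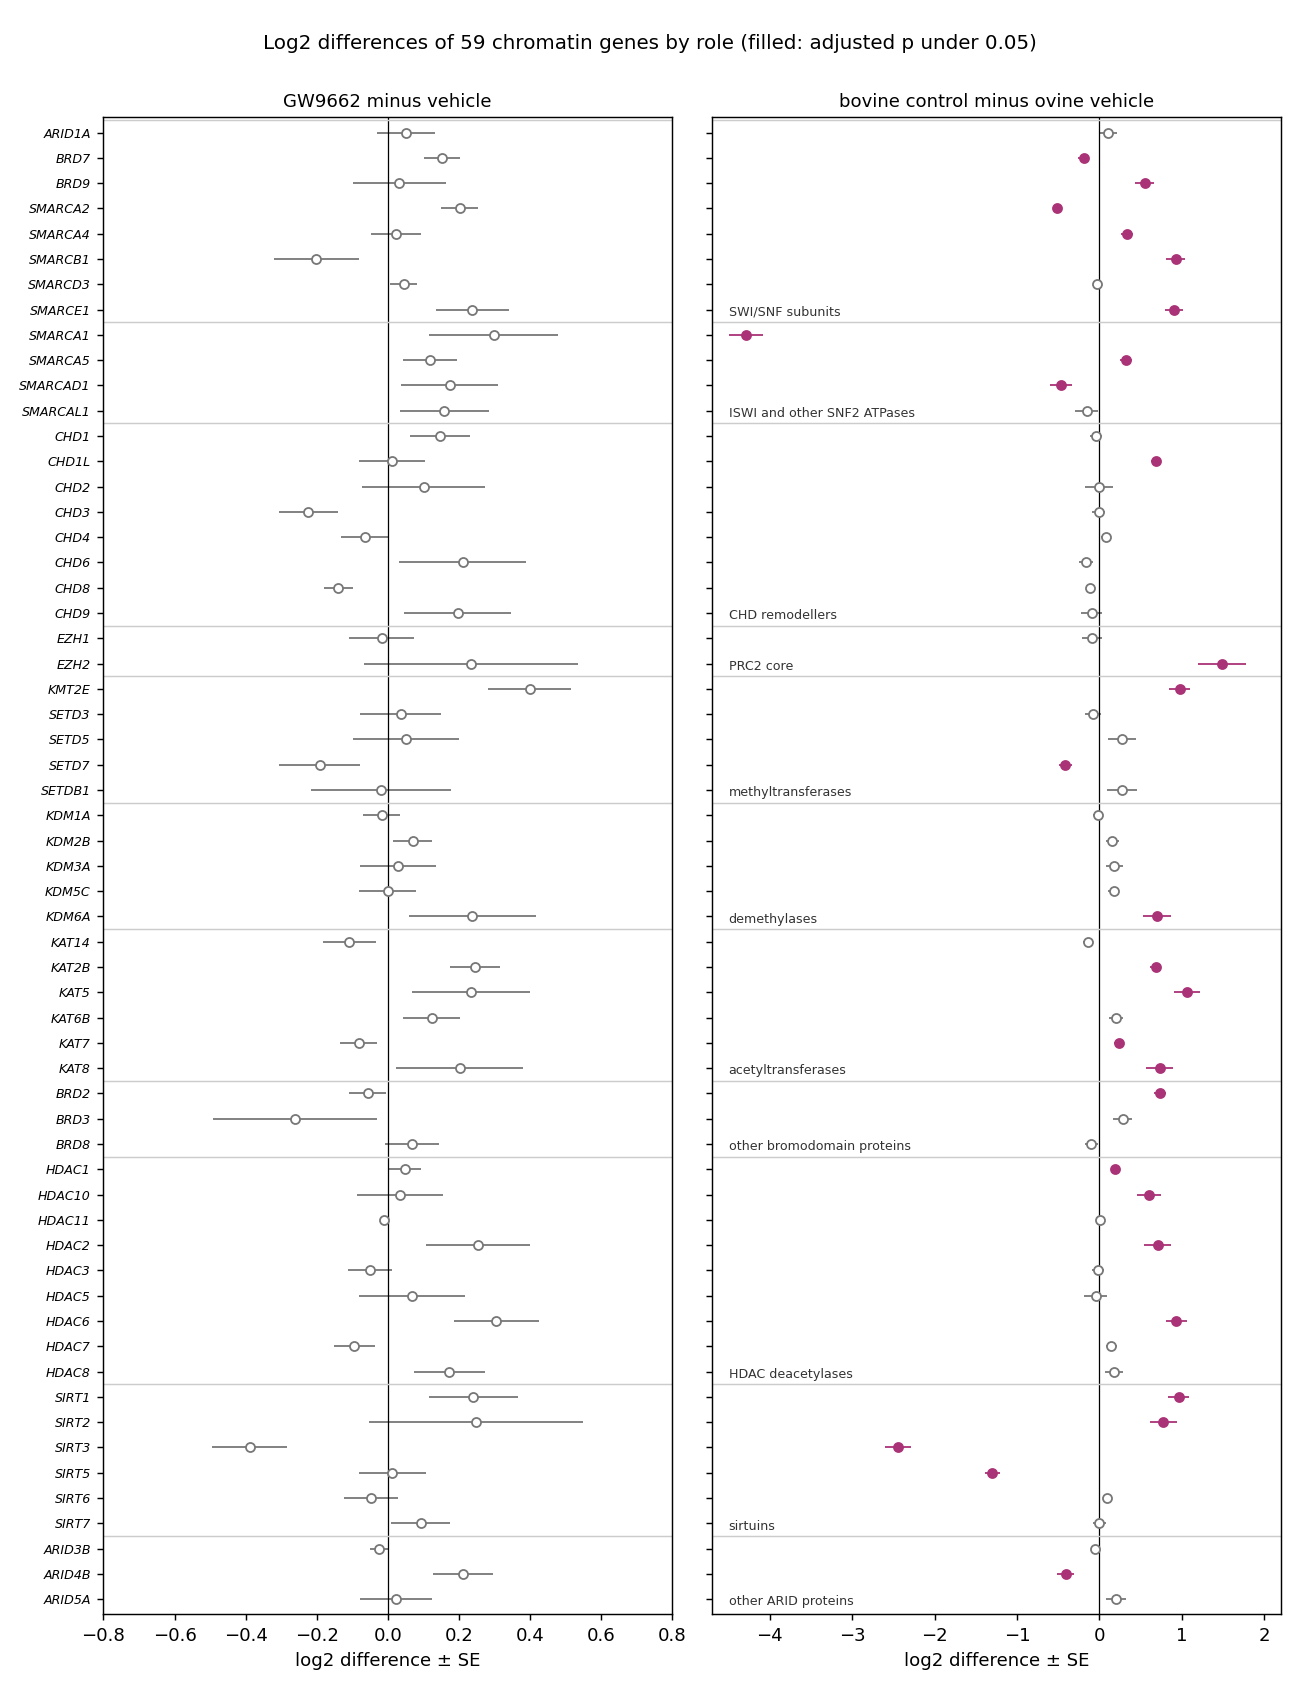
Log2 difference ± SE of each of the 59 member genes by role, from limma on 5 against 5 arrays, for GW9662 minus vehicle (left) and bovine control minus ovine vehicle (right). The horizontal scales differ, and filled points have an adjusted p under 0.05. No point on the left is filled and all lie within -0.39 and 0.40, while on the right 20 genes are filled above 0 and 8 below, with SMARCA1 at -4.29.

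Among the methyltransferases, KMT2E had the largest positive difference of the 59 genes. KMT2E (also MLL5) belongs to the KMT2 family by sequence and carries a PHD finger that binds H3K4me3. Its vehicle arrays read 8.005, 8.133, 8.364, 8.491 and 8.596, and its GW9662 arrays 8.656, 8.719, 8.697, 8.911 and 8.603. Every GW9662 array lay above every vehicle array, narrowly at the closest pair, and it was the one brightest probe set of the 59 without overlap, where 11.6% of all genes had none. The difference was 0.40 (SE 0.12, adjusted p = 0.217), and its other 2 probe sets differed by -0.02 and 0.18. SETD7, which monomethylates H3K4 and non-histone proteins, stood at 10.09 ± 0.18 in vehicle and 9.89 ± 0.20 with GW9662, a difference of -0.19 (SE 0.11). SETDB1, an H3K9 methyltransferase, differed by -0.02 (SE 0.20).

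The PRC2 catalytic subunits gave no difference beyond their spread. EZH2, the main H3K27 methyltransferase of dividing cells, read 5.60, 7.32, 7.04, 6.98 and 7.14 on the vehicle arrays and 6.802, 7.104, 7.131, 6.996 and 7.227 on the GW9662 arrays. Apart from vehicle array 1 at 5.60, the vehicle values lay between 6.98 and 7.32, inside or close to the GW9662 range. The difference was 0.23 (SE 0.30, adjusted p = 0.597), and without that array it was -0.07. EZH1, its paralogue in resting tissue, differed by -0.02 (SE 0.09).

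For the 8 SWI/SNF genes, 7 differences were above 0, and 3 of these had an unadjusted p under 0.05. Over all 9155 genes 39.3% were above 0, and 7.67% were higher at that level. SMARCD3, 1 of the 7, was at the floor (2.34 in vehicle and 2.39 with GW9662). ARID1A and SMARCA4 fell below 0 after a second quantile normalisation. SMARCA2 (BRM), 1 of the alternative ATPases of the complex, read 9.28, 9.32, 9.34, 9.34 and 9.49 with vehicle and 9.45, 9.53, 9.55, 9.69 and 9.56 with GW9662. Only the highest vehicle array and the lowest GW9662 array overlapped. Its difference of 0.20 (SE 0.05, adjusted p = 0.188) had the smallest adjusted p of the 59 genes. The other ATPase, SMARCA4 (BRG1), differed by 0.02 (SE 0.07). BRD7, a subunit of the PBAF form of the complex, stood at 10.62 ± 0.09 with vehicle and 10.77 ± 0.07 with GW9662, a difference of 0.15 (SE 0.05, adjusted p = 0.217). SMARCE1, which holds an HMG DNA-binding domain, differed by 0.24 (SE 0.10). The core subunit SMARCB1 was the exception, at 6.67 ± 0.26 with vehicle and 6.47 ± 0.10 with GW9662 (-0.20, SE 0.12). ARID1A, the DNA-binding subunit of the BAF form, differed by 0.05 (SE 0.08).

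All 4 ISWI and other SNF2 ATPases had positive differences, from 0.12 to 0.30, where 39.3% of all genes were above 0. None of the 4 reached an unadjusted p under 0.05. SMARCA5 (SNF2H) differed by 0.12 (SE 0.08) and SMARCA1 (SNF2L) by 0.30 (SE 0.18). The 8 CHD remodellers were mixed, with 5 differences above 0. CHD8, a repressor of β-catenin target genes, read 5.87, 5.92, 5.77, 5.70 and 5.85 with vehicle and 5.74, 5.68, 5.64, 5.67 and 5.68 with GW9662. All GW9662 values lay below the vehicle median, and the ranges overlapped. Its difference was -0.14 (SE 0.04, adjusted p = 0.217). CHD3 and CHD4 are alternative ATPases of the NuRD deacetylase complex. CHD3 differed by -0.22 (SE 0.08, adjusted p = 0.217) and CHD4 by -0.06 (SE 0.07).

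Of the acetyltransferases, KAT2B (PCAF), a coactivator that acetylates H3K9, read 8.63, 8.66, 8.61, 8.97 and 8.75 on vehicle arrays and 8.88, 8.89, 8.98, 9.05 and 9.04 on GW9662 arrays. Vehicle array 4 alone reached into the GW9662 range. The difference was 0.25 (SE 0.07, adjusted p = 0.217). KAT14 and KAT7 had the smallest p among the acetyltransferases below 0, at -0.11 (SE 0.07) and -0.08 (SE 0.05). Across all 6 genes of this role the differences ran from -0.11 to 0.25, 4 of them above 0.

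Among the erasers, HDAC6, a mainly cytoplasmic deacetylase of tubulin, had the largest difference of the 9 HDAC genes. It read 5.62, 6.06, 6.15, 5.89 and 6.23 with vehicle and 6.29, 6.45, 6.34, 6.05 and 6.34 with GW9662, and the groups overlapped through GW9662 array 4. The difference was 0.31 (SE 0.12, adjusted p = 0.218). The class I enzymes of the NuRD, Sin3 and NCoR corepressors showed no difference that passed: HDAC1 differed by 0.05 (SE 0.05), HDAC2 by 0.25 (SE 0.15) and HDAC3 by -0.05 (SE 0.06). HDAC7, the class IIa enzyme best known from endothelium, differed by -0.09 (SE 0.06).

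SIRT3, the main protein deacetylase of mitochondria, had the largest negative difference of the 59 genes. Its vehicle arrays read 5.32, 5.36, 5.36, 5.00 and 5.54, and its GW9662 arrays 4.71, 4.95, 5.07, 5.04 and 4.86. The vehicle array at 5.00 lay inside the GW9662 range and the other 4 above it. The difference was -0.39 (SE 0.10, adjusted p = 0.207). Its other probe set, at the floor, differed by -0.02. SIRT1, a nuclear NAD-dependent deacetylase, differed in the other direction by 0.24 (SE 0.13, adjusted p = 0.266), with 0.28 on its other probe set. Neither passed.

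The 5 demethylases ran from -0.02 to 0.24, with KDM1A (LSD1, which acts on H3K4) at -0.02 (SE 0.05) and KDM6A (UTX, which acts on H3K27) at 0.24 (SE 0.18). Of the remaining bromodomain and ARID genes, BRD3, a BET-family reader, differed by -0.26 (SE 0.23), with 1 GW9662 array at 4.23 and the other 4 between 5.14 and 5.55. ARID4B, a subunit of the Sin3 corepressor, differed by 0.21 (SE 0.09, adjusted p = 0.221).

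**Figure D3:**
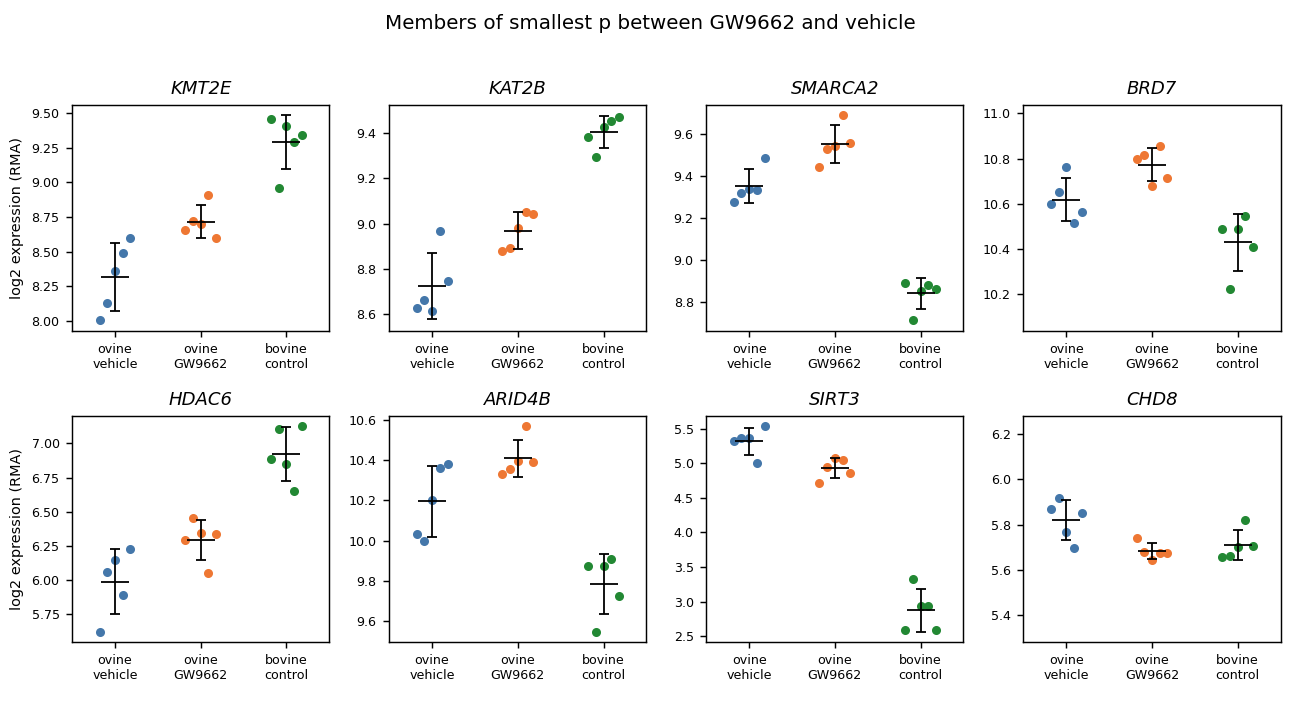
Log2 expression on each array (points, n = 5 per group) with mean ± SD for the 8 member genes KMT2E, KAT2B, SMARCA2, BRD7, HDAC6, ARID4B, SIRT3 and CHD8, in ovine vehicle, ovine GW9662 and bovine control. Vertical scales differ between panels and do not start at 0. None of these differences between GW9662 and vehicle passed the adjusted threshold, and KMT2E is the one panel in which the 2 ovine groups do not overlap.

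Partner genes were read from a separate list of 170 complex subunits and other chromatin enzymes, of which 112 had a named probe set. None passed for GW9662. At an unadjusted p under 0.05 there were 6 higher and 4 lower, and 59 of 112 differences (52.7%) were above 0 with a median of 0.02. These calls were 5.36% and 3.57% of the partners, against 7.67% and 12.5% of all genes, of which 39.3% were above 0. The smallest p-values belonged to NAP1L1, a histone chaperone (0.21, SE 0.05, adjusted p = 0.179), PRMT3, an arginine methyltransferase (0.34, SE 0.09, adjusted p = 0.213), MBD3, a NuRD subunit (-0.18, SE 0.04, adjusted p = 0.169), and SSRP1, a subunit of the FACT chaperone (-0.17, SE 0.06, adjusted p = 0.217). Vehicle and GW9662 arrays did not overlap in the 3′ minus 5′ measure, so the drug and this measure cannot be told apart. With the measure as a covariate 22 of the 59 member genes were above 0 (37.3%), near the 36.7% of all 9155 genes, and no member passed.

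The second comparison set the bovine control arrays against the ovine vehicle arrays, both without GW9662. It differs in species, in vessel or cell source as labelled, and in probe match, and the vehicle was named only for the ovine cells. The largest differences were in SMARCA1, SIRT3 and SIRT5, which read lower in the bovine cells, and in EZH2, KAT5, KMT2E, SIRT1, HDAC6, SMARCB1 and SMARCE1, which read higher. Of the 126 probe sets 62 passed (49.2%), 45 higher and 17 lower in the bovine arrays, where 45.2% of all probe sets passed, 15.6% higher and 29.6% lower. Without EED 48 of 103 passed, 35 higher and 13 lower. The groups did not overlap in 63 of the 126, against 53% of all probe sets. In 5 of the 17 lower calls both groups were under 3.

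By gene, 20 of 59 were higher, 8 lower and 31 did not pass. The array's genes as a whole gave 21.9% higher and 27.3% lower, 49.2% in all. Among genes with a mean of 3 or more, 19 of 55 members were higher and 8 lower (34.5% and 14.5%, together 49.1%), against 31.1% and 23.4% of all such genes, together 54.5%. With each array centred on its median the members gave 20 higher and 7 lower of 59 (33.9% and 11.9%, together 45.8%), and all genes 22% and 13.3%, together 35.3%. The members' share of calls was thus near that of the array in the values as deposited. Among genes with a mean of 3 or more it was below that of the array. With arrays centred it was above, where fewer of the array's genes were lower. Genes under 3, rarer among the members, were kept in that setting.

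**Figure D4:**
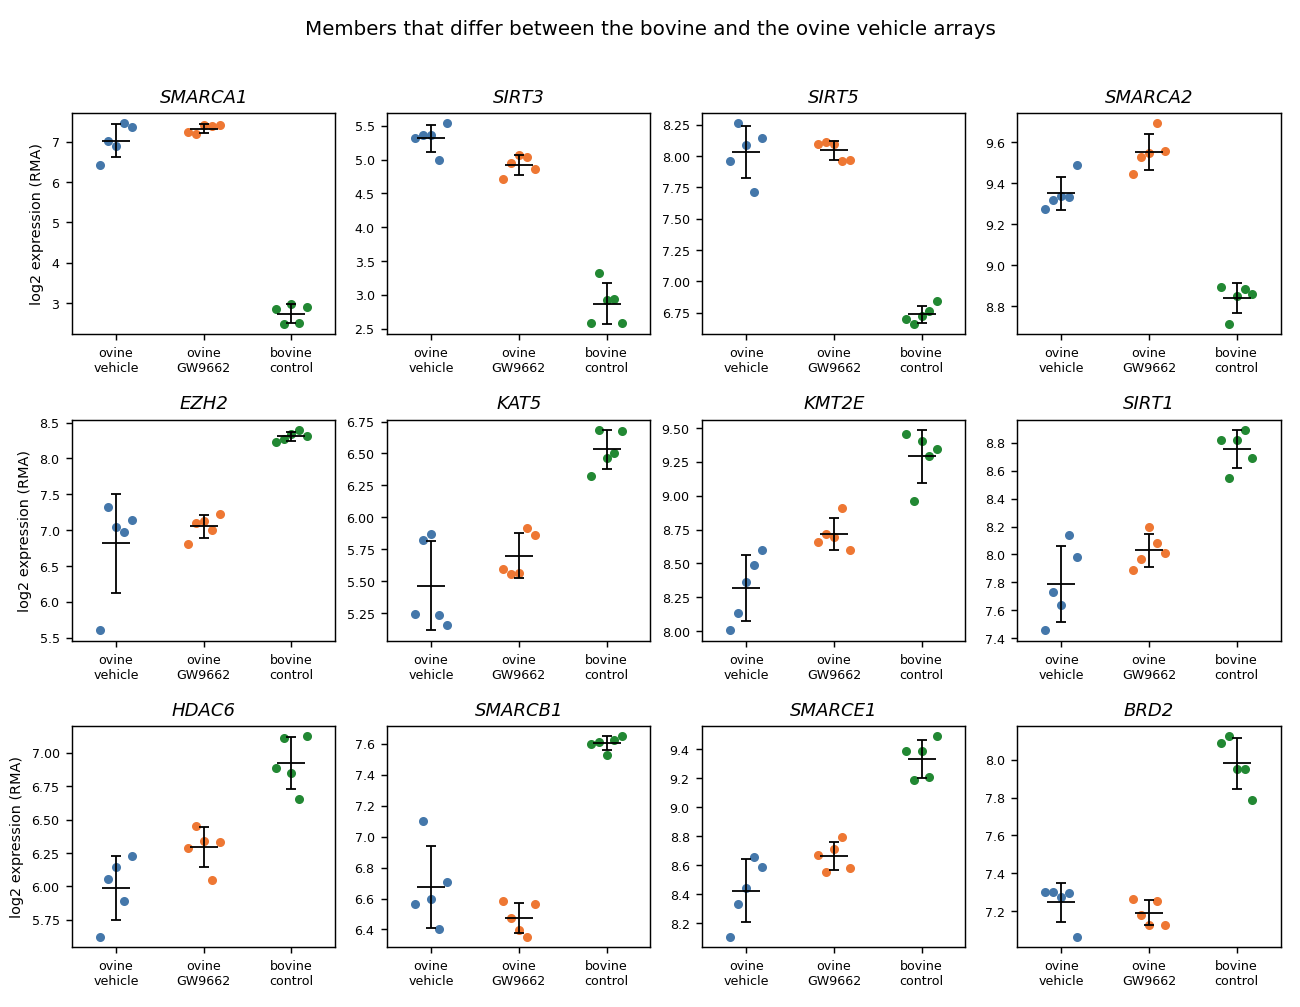
Log2 expression on each array (points, n = 5 per group) with mean ± SD for 12 member genes that passed between bovine control and ovine vehicle arrays. Vertical scales differ between panels and do not start at 0. SMARCA1, SIRT3, SIRT5 and SMARCA2 are lower in all 5 bovine arrays than in any ovine array, the other 8 genes are higher, and the lowest vehicle point of EZH2 is array 1 at 5.60.

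ISWI and related ATPases held the largest member difference. SMARCA1, the SNF2L ATPase of the NURF remodeller, read 6.41, 7.02, 6.89, 7.46 and 7.36 on the ovine vehicle arrays and 2.85, 2.47, 2.97, 2.50 and 2.90 on the bovine arrays. All bovine values were under the floor of 3 while all ovine values were above 6. The difference was -4.29 (SE 0.20, adjusted p = 4.1e-07). From the vehicle mean down to the floor itself it was 4.03 on the log2 scale, so the bovine signal was at least 16.3-fold lower. Its close relative SMARCA5 was higher instead, with vehicle arrays at 10.26, 10.44, 10.65, 10.56 and 10.57 and bovine arrays at 10.89, 10.69, 10.89, 10.79 and 10.86, which do not overlap. That difference was 0.33 (SE 0.07, adjusted p = 0.0095), and 0.90 on its other probe set, which also passed. SMARCAD1, an ATPase that acts at DNA breaks and replicated chromatin, was lower in the bovine group (-0.47, SE 0.13, adjusted p = 0.022).

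The SWI/SNF genes gave 4 higher and 2 lower of 8, where 21.9% of all genes were higher and 27.3% lower. Among all genes with a mean of 3 or more these shares were 31.1% and 23.4%. The alternative ATPases moved apart. SMARCA2 read 9.28 to 9.49 in vehicle arrays and 8.89, 8.71, 8.85, 8.88 and 8.86 in bovine arrays, a difference of -0.51 (SE 0.05, adjusted p = 3.5e-05). SMARCA4 read 8.97, 8.89, 9.24, 9.00 and 9.22 in vehicle and 9.33, 9.45, 9.38, 9.48 and 9.34 in bovine arrays, higher by 0.33 (SE 0.07, adjusted p = 0.0078), with 2 of its other 4 probe sets also higher. SMARCB1 and SMARCE1 were higher without overlap between groups. SMARCB1 was at 6.56, 7.10, 6.60, 6.40 and 6.71 in vehicle against 7.53 to 7.65 in bovine arrays, a difference of 0.93 (SE 0.11, adjusted p = 2.3e-04). SMARCE1 was at 8.11, 8.33, 8.44, 8.66 and 8.59 against 9.38, 9.19, 9.39, 9.21 and 9.49, a difference of 0.91 (SE 0.11, adjusted p = 1.9e-04). BRD9, the bromodomain subunit of the non-canonical form, was higher by 0.55 (SE 0.12), and BRD7 of the PBAF form was lower (-0.19, SE 0.07, adjusted p = 0.047), with a further probe set, under the floor in bovine arrays, at a difference of -1.16. ARID1A did not pass on its brightest probe set (0.11, SE 0.10, adjusted p = 0.36) but did on its other one, which read 6.03, 6.24, 6.29, 6.50 and 6.36 in vehicle and 7.40, 7.33, 7.61, 7.54 and 7.48 in bovine arrays (1.19, SE 0.09, adjusted p = 8.9e-06).

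On their brightest probe sets 7 of the 8 CHD remodellers did not pass. CHD1L (ALC1), a remodeller recruited by poly(ADP-ribose) at DNA damage, passed, at 6.48, 6.45, 6.70, 6.39 and 6.59 in vehicle against 7.14, 7.35, 7.16, 7.17 and 7.23 in bovine arrays. The groups were apart, with a difference of 0.69 (SE 0.06, adjusted p = 4.0e-05). CHD4 differed by 0.08 (SE 0.07) on its brightest probe set, at 8.68 in bovine arrays, and by 1.08 (adjusted p = 3.5e-04) on a much weaker one at 4.12. Weaker probe sets of CHD1 (0.89, adjusted p = 0.023, without overlap) and CHD2 (0.44, adjusted p = 0.046, with overlap) also passed as higher in the bovine arrays. Probe sets of CHD2 (-0.35, adjusted p = 0.038) and CHD9 (-0.05, adjusted p = 0.035) passed as lower, under 3 in both groups.

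EZH2 showed the largest increase of the 59 genes. Its bovine arrays read 8.23, 8.27, 8.34, 8.40 and 8.31, all above the vehicle arrays at 5.60 and 6.98 to 7.32. The bovine SD was 0.07 and the vehicle SD, with array 1 included, 0.69. The difference was 1.49 (SE 0.29, adjusted p = 0.0044), and 1.19 without vehicle array 1, the lowest of the 10 fits that each left out 1 array, all of which passed. With the 3′ minus 5′ measure as a covariate the EZH2 difference was 0.11 and did not pass (adjusted p = 1.00). EZH1 read 4.61 ± 0.14 in vehicle and 4.52 ± 0.25 in bovine arrays and did not pass (-0.08, SE 0.12). SUZ12, the remaining core subunit, had no named probe set.

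Among the methyltransferases KMT2E was higher on all 3 of its probe sets. The brightest read at most 8.596 in vehicle and 9.46, 8.96, 9.41, 9.29 and 9.34 in bovine arrays, without overlap. Its difference was 0.97 (SE 0.13, adjusted p = 4.8e-04), and those of the other probe sets were 1.38 and 0.67. SETD7 was lower, at 9.91, 9.92, 10.08, 10.19 and 10.32 in vehicle and 9.60 to 9.72 in bovine arrays (-0.41, SE 0.08, adjusted p = 0.0031). SETDB1 did not pass (0.27, SE 0.19, adjusted p = 0.23). Of the 5 demethylases KDM6A alone passed on its brightest probe set, at 6.11, 6.46, 6.76, 7.15 and 6.77 in vehicle against 7.22 to 7.50 in bovine arrays (0.70, SE 0.17, adjusted p = 0.013). A dim probe set of the same gene, at 3.14 and 3.07, passed the other way, by -0.07. The brightest gave -0.10 once the 3′ minus 5′ measure was a covariate. KDM3A, an H3K9 demethylase, passed on its weaker probe set, at 6.29 ± 0.13 in vehicle and 6.88 ± 0.11 in bovine arrays without overlap (0.59, SE 0.07, adjusted p = 2.6e-04), and not on its brightest (0.18, SE 0.10). KDM1A lay at 8.55 ± 0.11 and 8.53 ± 0.05 (-0.02, SE 0.05).

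The acetyltransferases gave 4 higher and 0 lower of 6, a small number of genes. Among all genes with a mean of 3 or more 31.1% were higher and 23.4% lower. KAT5 (TIP60), the catalytic subunit of the NuA4 complex, read 5.24, 5.82, 5.87, 5.23 and 5.16 in vehicle and 6.32, 6.69, 6.46, 6.51 and 6.68 in bovine arrays. The lowest bovine array was above the highest vehicle array, and the difference was 1.07 (SE 0.16, adjusted p = 9.4e-04). KAT8 (MOF), the H4K16 acetyltransferase, read 6.21, 6.26, 6.92, 6.84 and 6.92 against 7.19 to 7.56, higher by 0.74 (SE 0.17, adjusted p = 0.0090), but its value was -0.04 once the 3′ minus 5′ measure was a covariate. KAT2B was higher by 0.68 (SE 0.07, adjusted p = 6.6e-05), with bovine arrays at 9.30 to 9.47 and vehicle arrays at 8.61 to 8.97, and by 0.88 on a weaker probe set. KAT7 (HBO1) was higher by 0.24 (SE 0.06, adjusted p = 0.015).

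Of the 9 HDAC genes, 4 were higher and 0 lower, where 21.9% of all genes were higher and 27.3% lower. Among all genes with a mean of 3 or more these shares were 31.1% and 23.4%. HDAC6 read 6.88, 7.11, 6.85, 6.65 and 7.13 in bovine arrays, above the vehicle range of 5.62 to 6.23, a difference of 0.94 (SE 0.13, adjusted p = 5.7e-04). HDAC2 was higher by 0.71 (SE 0.16, adjusted p = 0.0099) on a brightest probe set of only 4.40 in vehicle arrays, and its other 2 probe sets did not pass. HDAC1 was higher by 0.19 (SE 0.05, adjusted p = 0.014), with vehicle arrays at 10.07 to 10.21 and bovine arrays at 10.25 to 10.48. HDAC10, the polyamine deacetylase, was the fourth, with its ovine vehicle mean of 2.60 under the floor. HDAC7 passed on its weaker probe set, at 6.68 and 7.22 (0.53, adjusted p = 0.0054). HDAC3 gave -0.01 (SE 0.07, adjusted p = 0.91), with both groups between 6.60 and 6.92.

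The 6 sirtuins divided by direction. Both mitochondrial members measured, SIRT3 and SIRT5, were lower in the bovine cells. SIRT3 read 2.59, 3.33, 2.93, 2.93 and 2.59 in bovine arrays against 5.00 to 5.54 in vehicle arrays, a difference of -2.44 (SE 0.15, adjusted p = 3.0e-06). Its bovine mean of 2.87 was under the floor, though the array at 3.33 was above it. From the vehicle mean down to the floor was 4.98-fold, so the size of the difference is approximate. SIRT5, a desuccinylase, stayed well above the floor in both species, at 7.96, 8.26, 8.08, 7.71 and 8.14 in vehicle and 6.70, 6.66, 6.72, 6.76 and 6.84 in bovine arrays. Its groups were far apart, with a difference of -1.30 (SE 0.09, adjusted p = 7.4e-06). Higher in the bovine cells were SIRT1, at 7.45, 7.73, 7.64, 8.14 and 7.98 against 8.82, 8.55, 8.82, 8.89 and 8.69 (0.97, SE 0.13, adjusted p = 4.2e-04), and SIRT2, the cytoplasmic member (0.78, SE 0.16, adjusted p = 0.0055). Each of these had a further probe set that was also higher, by 0.61 for SIRT1 and 0.85 for SIRT2. SIRT6 and SIRT7 did not pass.

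Of the other bromodomain genes, BRD2, a BET reader of acetylated histones, read 7.30, 7.30, 7.28, 7.29 and 7.07 in vehicle and 8.09, 8.13, 7.95, 7.95 and 7.79 in bovine arrays. The bovine group lay wholly above, by 0.73 (SE 0.07, adjusted p = 5.4e-05). ARID4B was lower, at 10.03, 10.00, 10.20, 10.36 and 10.38 in vehicle against 9.55 to 9.91 in bovine arrays (-0.41, SE 0.10, adjusted p = 0.012).

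Different probe sets of a gene did not always give the same call. Among the 26 genes other than EED with several, 7 had at least 2 probe sets called in the same direction, 9 had 1 called, 7 had none called, and 3 (CHD2, HDAC10 and KDM6A) had probe sets called in opposite directions. The lower calls of these 3 came from dim probe sets, with both groups under 3 for CHD2 (2.98 and 2.63) and HDAC10 (2.57 and 2.46) and just above it for KDM6A. The genes called the same way on several probe sets were KMT2E, SMARCA4, SMARCA5, SIRT1, SIRT2 and KAT2B, all higher in the bovine arrays, and BRD7, lower.

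Between the controls 49 of the 112 partner genes were higher and 10 lower, with a median of 0.19. Together these were 52.7%, near the 49.2% of all named genes that passed, but the directions differed. Of the partners 43.8% were higher and 8.93% lower, against 21.9% and 27.3% of all genes. Among all genes with a mean of 3 or more these shares were 31.1% and 23.4%. Those of largest increase were NSD3, an H3K36 methyltransferase (1.99, SE 0.11), SUV39H1, an H3K9 methyltransferase (1.31, SE 0.12), ASF1B, a histone chaperone (1.30, SE 0.22), RUVBL2, an ATPase of the INO80 and TIP60 complexes (0.97, SE 0.10), TBL1X, a subunit of the NCoR corepressor (0.93, SE 0.10), and EHMT2, also an H3K9 methyltransferase (0.88, SE 0.30). Of those lower, SMYD4 led (-1.05, SE 0.21), followed by the coactivator NCOA1 (-0.79, SE 0.17), TADA2B of the SAGA complex (-0.55, SE 0.18), MTA3 of NuRD (-0.54, SE 0.07), CBX6 of PRC1 (-0.39, SE 0.04) and EP400 of the TIP60 complex (-0.31, SE 0.10). All 12 had an adjusted p under 0.05. Species, vessel, probe match and the 3′ minus 5′ measure cannot be told apart in this comparison. With that measure as a covariate 6 of the 126 member probe sets passed. Over the whole array 1601 of 24016 passed, down from 10860. By gene, 0 of the 59 members were higher and 4 lower, against 320 higher and 527 lower of all 9155. Of the 23 called genes covered by the naming rule SMARCA1, SIRT3 and SIRT5 kept the call. Of the other 20, 7 had differences as large or larger than before (such as BRD2 at 0.78, SMARCB1 at 0.98 and SETD7 at -0.66), 6 were smaller, 5 were less than 0.5 times their former size (EZH2, KAT5, HDAC6, SMARCA4 and SMARCA5) and 2 had the opposite sign (KAT8 and KDM6A).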

How the data were processed

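Biotin-labelled cRNA of 15 samples was hybridised to 1-colour Affymetrix bovine arrays, 1 array per sample. The authors deposited log2 expression values from RMA, which corrects background, quantile-normalises arrays and summarises the probes of a probe set. The method's name is known per the submitters' processing notes, and its version is not given in the sources used here. Depth does not apply to arrays, and precision is limited by how many there are. Control probe sets (112) were not tested. Of the remaining 24016, 13292 had 1 gene symbol in the platform annotation, 86 had several and 10638 had none, and only those with 1 were named.

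Each comparison was fitted on its own 10 arrays with lmFit and eBayes in limma 3.58.1 (R 4.3.3), after a test on simulated data. All p-values come from limma, adjusted by Benjamini-Hochberg across the 24016 tests, with calls made under 0.05. The brightest probe set stood for a gene, and a mean under 3 was treated as the floor, since signal over background is not recorded. Groups came from the sample titles.

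Members, roles, partner and marker lists were chosen with earlier results of these data known. The naming rule took, for GW9662, the 8 genes of smallest p per direction, for the controls up to 10 per direction of largest difference among called genes without overlap, the gene of smallest p per role, and 25 fixed genes, of which 18 had a named probe set. Other members (such as BRD9, SMARCAD1, KAT7 and HDAC10 between the controls) are given to complete counts and were picked after their values were seen. Alternatives were centred arrays, repeated quantile normalisation, leaving out dim probe sets, trended and robust variance, array weights, all 15 arrays in the fit, a replicate block, the 3′ minus 5′ covariate, 1 probe set per gene, and leaving out each array. Counts of positive differences under each were added after seeing the data. No sequences or coordinates were used here.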

Additional observations from a re-analysis of the deposited data

Results flagged for a closer look

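Each gene named by the rule was checked for 1 array standing apart within its group of 5, by the gap to the nearest array as a share of the group's range (Dixon's test). Of 114 groups tested, 6 met this, and chance alone gives about 1 in 20. EZH2 read 5.60 on vehicle array 1, with the other vehicle arrays between 6.98 and 7.32. BRD2 read 7.07 on vehicle array 5, below the others at 7.28 to 7.30. SMARCA2 read 9.49 on the same array, above the others at 9.28 to 9.34, and 8.71 on bovine array 2, below the others at 8.85 to 8.89. On GW9662 array 4, ARID4B read 10.57 against 10.33 to 10.40 on the other arrays, and HDAC3 read 6.59 against 6.73 to 6.76. No cause was tested for any of these.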

How the results depend on the processing

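For GW9662 against vehicle, 0 member probe sets passed under every alternative run, leaving out each array included. The members' median difference, 0.04, ran from -0.0008 (without vehicle array 1) to 0.0647 without 1 array, and was -0.0261 with the 3′ minus 5′ covariate, 0.0778 with arrays centred and 0.0934 with dim probe sets left out. Between bovine and ovine controls the 62 calls became 47 to 75 under 7 of the 9 other settings and 55 to 62 without 1 array. They became 29 when genes, 60 of them members, were each tested on 1 probe set, and 6 with the 3′ minus 5′ covariate, whose values do not overlap between the groups. With that covariate the calls over all 24016 probe sets also fell, from 10860 to 1601. The members' median difference between the controls, 0.10, was 0.229 with dim probe sets left out. Of the 23 called genes of the naming rule, EED aside, 20 lost the call with that covariate, 7 of them with differences as large or larger, and all 23 kept it under every other setting. The 17 lower calls became 10 with arrays centred or dim probe sets left out and 11 without bovine array 1 or 2.

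Some differences changed sign, and the cause was not tested. Among them KAT8 (0.74) and KDM6A (0.70) had passed between the controls, and both turned with the covariate, as did SETDB1 (0.27), which had not passed. For GW9662, array centring gave EZH1 0.0254, KDM1A 0.0256 and SETDB1 0.0244. The values given here for EED are those of the brightest of its 23 probe sets, which cannot be taken as a reading of EED. Repeated quantile normalisation gave ARID1A -0.0075, EED -0.0114, HDAC1 -0.0019 and SMARCA4 -0.0363, and array weights gave ARID1A -0.0307, EZH2 -0.0421 and SMARCA4 -0.0208. The covariate gave ARID1A -0.106, EED -0.132, EZH2 -0.423, HDAC1 -0.0347, HDAC6 -0.0048, KAT7 0.0157, KDM1A 0.0134, KDM6A -0.319, SMARCA4 -0.0799 and SMARCA5 -0.0414. Leaving out 1 array gave ARID1A -0.0240 to 0.0937, EED -0.0071 to 0.0783, EZH1 -0.0832 to 0.0307, EZH2 -0.0692 to 0.361, KDM1A -0.0638 to 0.0053, SETDB1 -0.189 to 0.0779 and SMARCA4 -0.0207 to 0.0680. Between the controls, centring gave HDAC3 0.0238 and KDM1A 0.0138. The covariate gave ARID1A -0.517, CHD4 -0.195, KAT8 -0.0411, KDM1A 0.0493, KDM6A -0.104 and SETDB1 -0.494. Leaving out 1 array gave EZH1 -0.144 to 0.0154, HDAC3 -0.0518 to 0.0274 and KDM1A -0.0676 to 0.0014.

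The labels do not say whether samples with the same replicate number are paired. Deviations of same-numbered arrays correlated at -0.194 to 0.172 for GW9662 and -0.097 to 0.094 between the controls. Those of differently numbered arrays ran from -0.215 to 0.255 and from -0.158 to 0.112. Such correlations cannot exclude pairing. With the replicate number as a block, GW9662 gave 0 member calls and the controls 47, 9 of them lower.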
